A study of Homo sapiens with 9 samples.

Results

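The formins FMN2, FMN1, DIAPH1, DIAPH2, DIAPH3, FHOD1, FHOD3, FMNL2, DAAM1 and INF2 were followed through 31 probe sets, out of 54613 probe sets and 19775 genes on the array once controls were set aside. All probe sets annotated to these 10 genes were taken. The family was chosen by the behaviour of FMN2, whose brightest probe set lay below the parental line in NLS-actin cells and above it in WT-actin cells, so FMN2 values are given as a description, and its passing a threshold, which enters some counts, is no independent test. Of the 31 probe sets, 19 had a mean log2 signal above the median of all probe sets, which is a signal of 33.5. The other 12 are called dim here.

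RNA of HaCaT cells, a human keratinocyte line that became immortal in culture, was measured on 9 whole-genome expression arrays, 3 per line. NLS-actin cells stably expressed β-actin fused to EGFP and to a nuclear localisation sequence, which concentrates actin in the nucleus. WT-actin cells stably expressed EGFP-tagged β-actin without that sequence, and parental HaCaT cells carried no construct. Each construct was represented by 1 stably selected line, so the effect of a construct and a difference between lines cannot be told apart, and the promoter driving the constructs is not given in the sources used here. The 3 arrays of a line are called replicates, but nothing says that they came from separate cultures, so each p value measures the spread between arrays, which may be technical.

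Formins build straight, unbranched actin filaments. Their FH2 domain forms a ring-shaped dimer that starts a filament and stays on its growing end, while the neighbouring FH1 domain recruits actin monomers bound to profilin. The Diaphanous-related formins (DIAPH, DAAM, FMNL and, in part, FHOD and INF2) are folded on themselves until a signal opens them. In keratinocytes and other epithelial cells, formin filaments feed stress fibres, cell contacts and protrusions. FMN2 is best known from oocytes, where it builds the actin mesh that positions the meiotic spindle with Spire proteins, and from neurons, and formins have also been found in the nucleus. By lowering the pool of free actin monomers, formins release the MRTF cofactors of the transcription factor SRF.

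The FMN2 gene lies on chromosome 1 of GRCh38.p14, plus strand, from 240091883 to 240475187, a span of 383.3 kb. FMN1, its nearest relative, lies on the minus strand of chromosome 15, from 32765544 to 33194714. The 250 bases upstream of an annotated start of each gene are shown because these relatives had different patterns across the lines. GC boxes (GGGCGG) and CCAAT boxes (CCAAT), on either strand, are in capitals. The FMN2 stretch is chr1:240091633-240091882 and the FMN1 stretch chr15:33194715-33194964, both from RefSeq.
FMN2: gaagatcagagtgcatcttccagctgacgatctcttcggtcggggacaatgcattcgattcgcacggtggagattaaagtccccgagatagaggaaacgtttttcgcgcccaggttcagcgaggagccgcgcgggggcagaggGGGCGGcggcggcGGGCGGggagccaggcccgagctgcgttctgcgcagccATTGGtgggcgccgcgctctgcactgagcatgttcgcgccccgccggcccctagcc
FMN1: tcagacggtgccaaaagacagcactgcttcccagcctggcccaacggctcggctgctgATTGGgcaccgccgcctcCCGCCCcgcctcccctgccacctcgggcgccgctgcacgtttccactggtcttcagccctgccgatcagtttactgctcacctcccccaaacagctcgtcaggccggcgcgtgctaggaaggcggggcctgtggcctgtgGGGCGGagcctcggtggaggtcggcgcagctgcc
Both stretches held 2 GC boxes and 1 CCAAT box, with a GC content of 66.4% for FMN2 and 69.6% for FMN1. Another FMN1 start, not shown (chr15:33068175-33068424), held 1 GC box and 1 CCAAT box, with a GC content of 52.8%. RefSeq gave 16 such starts for the 10 formins, with every gene matched. A GC box was found in 12 of the 16, with at least 1 start for each of the 10 genes, against 42.6% of all 35097 promoters. CCAAT was present at 7 of the 16 starts, in 6 genes, against 32% of all promoters. The letters TATAAA were found at 0 of the 16 (10.7% of all promoters), and the CArG box, the motif bound by SRF, also at 0 of the 16 (1.16% of all promoters). No motif overlapped another kind in the FMN2 stretch. These matches describe the letters of the windows only.

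Signals of all 9 arrays had been scaled to a trimmed mean of 500.04 to 500.06, and their medians lay between 29.67 and 43.26. Arrays parental 2, WT-actin 1 and NLS-actin 2 deviated together from the mean of their own line, along an axis that held 46.9% of the variation within lines. The ratio of 3′ to 5′ ACTB control signals, a sign of RNA or labelling quality, was 6.96, 12.82 and 7.98 in NLS-actin arrays, 14.91, 6.79 and 3.82 in WT-actin arrays, and 5, 7.96 and 6.28 in parental arrays. For GAPDH the ratio was 1.69, 1.64 and 1.95 in NLS-actin, 3.07, 1.52 and 1.39 in WT-actin, and 1.6, 1.4 and 1.41 in parental arrays. NLS-actin and WT-actin cells also express a β-actin construct, whose part in the ACTB ratio was not tested. The part of either ratio in the results was not tested. Keratinocyte markers KRT5, KRT14, DSP and ITGB4 were all above the median signal (4 of 6 measured), with summed signals of 31100 to 33700 in NLS-actin arrays, 26000 to 38400 in WT-actin arrays and 22400 to 28600 in parental arrays.

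By its brightest probe set, FMN2 signal was lowest in NLS-actin cells and highest in WT-actin cells. Probe set 223618_at gave 9.5, 18.3 and 10.5 in NLS-actin cells, 473, 487 and 374 in WT-actin cells, and 78.9, 53.8 and 74.9 in parental cells. No array of any line overlapped an array of another, with WT-actin highest and NLS-actin lowest. On the log2 scale the difference was -2.48 for NLS-actin against parental cells, 2.69 for WT-actin against parental cells and -5.18 between NLS-actin and WT-actin cells, each with an SE of 0.37. These correspond to a signal 5.59-fold lower, 6.47-fold higher and 36.2-fold lower. Both comparisons with the parental line use the same 3 parental arrays. The NLS-actin signals lay below the median of all probe sets, so the size of the NLS-actin difference depends on how low signals are treated. With 8.08 signal units added before the log2 step it was -1.90, and the difference between NLS-actin and WT-actin cells was -4.46. Leaving out the 3 arrays that deviated together, NLS-actin against parental cells gave -2.94.

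The other FMN2 probe sets were dim and did not all follow this pattern. Probe set 1555471_a_at read 8.6, 4.7 and 9.3 in NLS-actin cells, 49.7, 63.5 and 36.3 in WT-actin cells, and 12.4, 5.9 and 12.2 in parental cells. Here WT-actin arrays were again above all others (log2 difference 2.33 from parental cells), while NLS-actin and parental arrays overlapped, with a log2 difference of -0.41. Over the 9 arrays its log2 values correlated with those of 223618_at at r = 0.874, a description of arrays that share their scaling and labels. Probe set 230946_at was flat, at 20.5, 31.1 and 33.1 in NLS-actin cells, 21.3, 36.8 and 24.6 in WT-actin cells, and 37.6, 35 and 19.9 in parental cells. Its log2 differences were -0.10 for NLS-actin and -0.15 for WT-actin against parental cells. Signals of 1559244_at stayed at 13.7 or below on every array and overlapped between lines, with log2 differences of -0.40 and -1.37. Averaging the log2 values of all 4 probe sets gave -0.85 for NLS-actin and 0.88 for WT-actin cells against parental cells, and -1.73 between NLS-actin and WT-actin cells. The higher signal in WT-actin cells was thus carried by 2 of 4 probe sets, and the lower signal in NLS-actin cells by 1. Which exons each probe set covers was not analysed here.

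**Figure D1:**
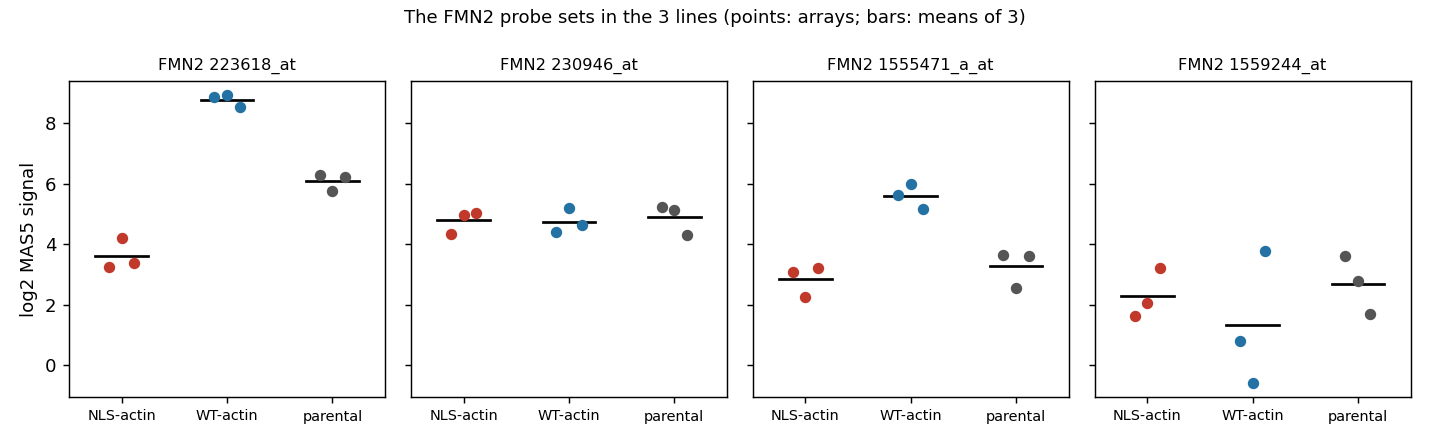
Log2 MAS5 signal of the 4 FMN2 probe sets (y axis) on the 3 arrays each of NLS-actin, WT-actin and parental cells (x axis). Points are arrays and bars are means. Probe set 223618_at separates the 3 lines, 1555471_a_at separates WT-actin cells from the others, and 230946_at and 1559244_at overlap.

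FMN2 is known from neurons and oocytes, so markers of those cells are given beside it. Summed signals of 6 neuron markers were 1260 to 1580 in NLS-actin arrays, 1820 to 3470 in WT-actin arrays and 1860 to 2200 in parental arrays, so NLS-actin arrays lay below the rest, as they did for FMN2. Most of that sum was MAP2, a microtubule-associated protein, whose probe set 225540_at gave 1467, 1401 and 1150 in NLS-actin cells, 3357, 1718 and 2046 in WT-actin cells, and 1747, 2102 and 1847 in parental cells. Of the 6, MAP2, RBFOX3 and SYT1 had a probe set above the median signal while SNAP25, STMN2 and ELAVL3 did not. Single probe sets went both ways. Of 15, 7 had a positive and 8 a negative log2 difference for NLS-actin against parental cells. Against WT-actin cells, 4 were positive and 11 negative. The 1 past an unadjusted p of 0.05 (limma) and a 2-fold change for NLS-actin against parental cells was higher, beside 3.6% of all probe sets. By limma, 0 of 15 probe sets passed an adjusted p of 0.05 in any comparison. At an unadjusted p under 0.05, 2, 0 and 1 passed for NLS-actin against parental, WT-actin against parental and NLS-actin against WT-actin. Over all probe sets, 0.0769%, 0.103% and 0.364% passed the adjusted p in the same order, and 6.36%, 5.98% and 7.85% the unadjusted p. None of the 5 oocyte markers measured was above the median, with sums of 13.3 to 29.4 in NLS-actin, 16.5 to 33.4 in WT-actin and 5.18 to 22.8 in parental arrays. The part of these markers in the FMN2 values was not tested. In RNA of whole cultures, fewer cells expressing a gene and less RNA per cell cannot be told apart.

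Past an adjusted p of 0.05 (limma with Benjamini-Hochberg adjustment over all 54613 probe sets), 1 of the 31 formin probe sets was called in each comparison, and each time it was FMN2 223618_at. The share of all probe sets called was 0.0769% for NLS-actin against parental cells, 0.103% for WT-actin against parental cells and 0.364% between NLS-actin and WT-actin cells. Nothing is read from the FMN2 count, since FMN2 set the choice. Of the 27 probe sets of the other 9 formins, 0 were called in any comparison. At an unadjusted p under 0.05, 5 of the 27 passed for NLS-actin against parental cells, where 6.36% of all probe sets did. For WT-actin against parental cells 6 of the 27 passed (all probe sets 5.98%), and between NLS-actin and WT-actin cells 7 of the 27 did (all probe sets 7.85%).

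An unadjusted p under 0.05 with a change over 2-fold, the kind of threshold used with these arrays, was met by 3 of 31 formin probe sets for NLS-actin against parental cells, all lower, against 3.6% of all probe sets. These were FMN2 223618_at and 2 dim DIAPH2 probe sets. For WT-actin against parental cells it was met by 5 of 31, against 3.2% of all: 2 of FMN2, higher, and 2 of DIAPH2 and 1 of DAAM1, lower and dim. Between NLS-actin and WT-actin cells it was met by 4 of 31, against 4.67% of all: 2 of FMN2 and 1 of DIAPH2, lower, and 1 of DAAM1, higher. Without FMN2, whose values set the choice, the counts were 2, 3 and 2 of 27 in the same order of comparisons. The 27 probe sets other than FMN2 had a median log2 difference of -0.27 for NLS-actin against parental cells, beside -0.06 over all probe sets. Restricted to signals above the median, these were -0.17 for 18 formin probe sets and -0.06 for all. For WT-actin against parental cells the median of the 27 was -0.11, beside -0.12 over all, and NLS-actin against WT-actin gave -0.12, beside 0.03.

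**Figure D2:**
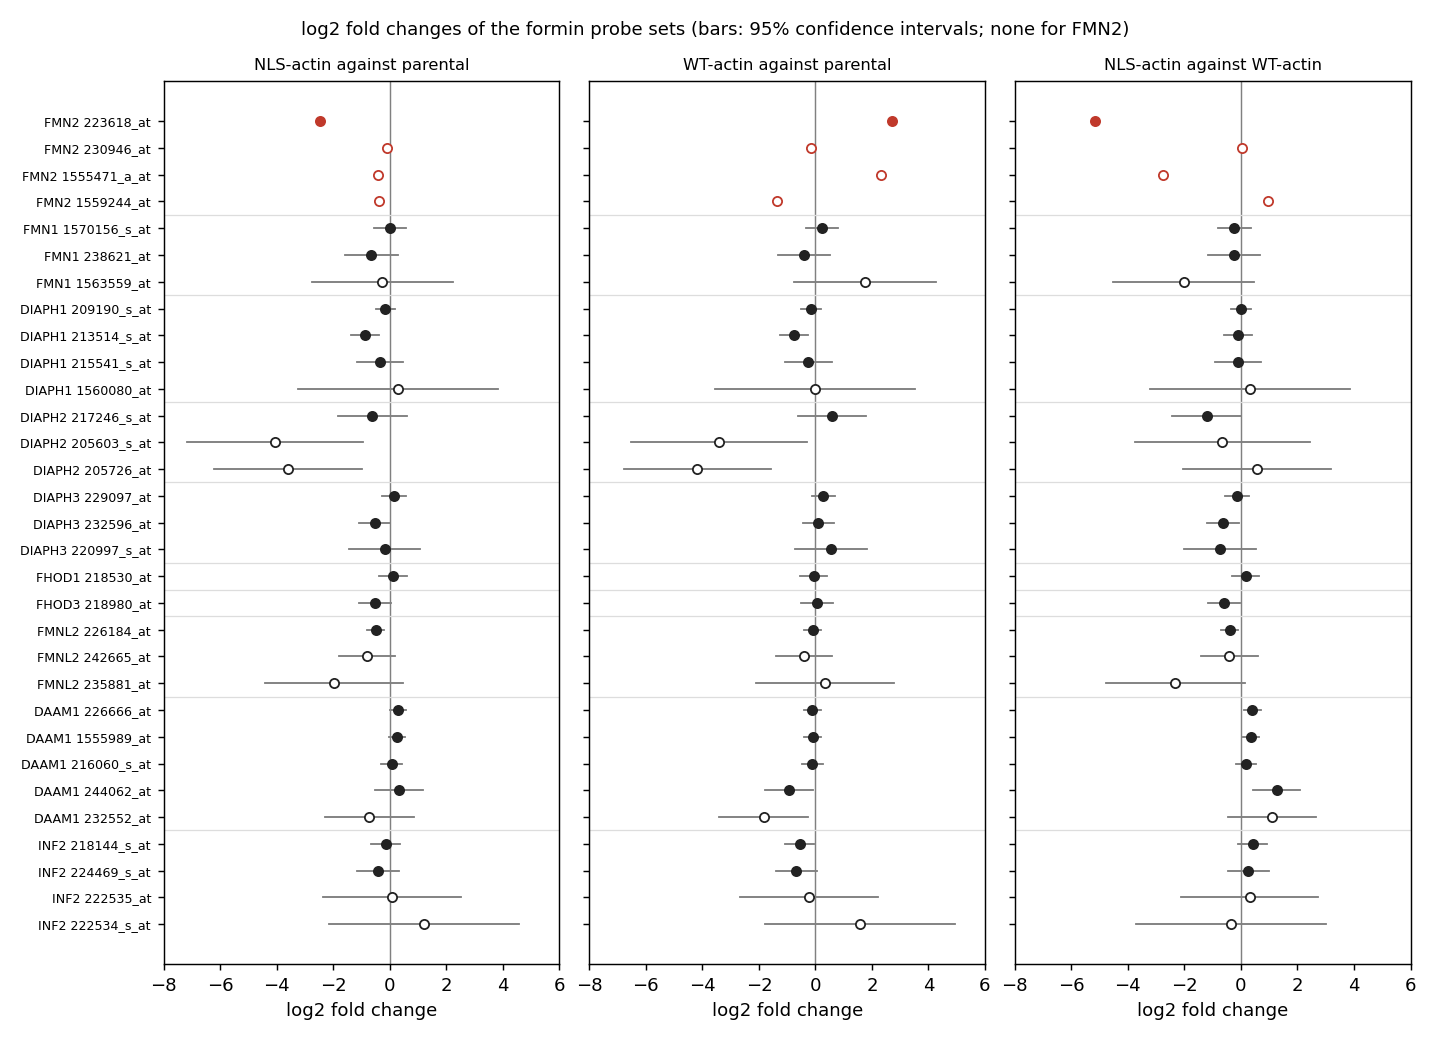
Log2 fold change (x axis) of the 31 formin probe sets (y axis, by gene) for NLS-actin against parental, WT-actin against parental and NLS-actin against WT-actin cells. Filled points are probe sets above the median signal, open points are dim, red marks FMN2, and bars are 95% confidence intervals from limma, not drawn for FMN2. FMN2 223618_at lies at -2.48, 2.69 and -5.18 in the 3 panels, and the dim DIAPH2 probe sets lie lowest in the comparisons with parental cells.

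All 3 arrays of a line lay beyond all 3 of the other for 8 of the 27 non-FMN2 probe sets in NLS-actin against parental cells, 2 higher and 6 lower, where 13.2% of all probe sets were so separated. For WT-actin against parental cells there were 7 of 27, 1 higher and 6 lower (12.3% of all), and between NLS-actin and WT-actin cells 7 of 27, 4 higher and 3 lower (12.1% of all). Several of these probe sets share a gene, so they are not separate observations. With 3 arrays per line, 0.1 is the smallest p an exact permutation test allows. In NLS-actin against parental cells they were 1 probe set each of FMN1 and DIAPH1, and 2 each of DIAPH2, FMNL2 and DAAM1, with DAAM1 the higher gene.

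DIAPH1, the Diaphanous formin that supports stress fibres, had 4 probe sets. The 3 above the median signal had negative log2 differences from parental cells in both actin lines, but of differing size. Probe set 213514_s_at gave 391, 405 and 365 in NLS-actin cells, 326, 373 and 609 in WT-actin cells, and 666, 734 and 736 in parental cells. Both actin lines were below every parental array and overlapped each other. The log2 difference from parental cells was -0.88 ± 0.23 for NLS-actin (SE, limma adjusted p = 0.371) and -0.76 ± 0.23 for WT-actin (SE, limma adjusted p = 0.582). The NLS-actin call was past the threshold under 1 of 18 alternatives. With the replicate number as a block the adjusted p was 0.374 over all 9 arrays, 0.384 with the block within NLS-actin and parental arrays, and 0.0215 in a fit of those 6 arrays alone, which was chosen after seeing the data (limma). That last fit called 0.835% of all probe sets. The brightest DIAPH1 probe set, 209190_s_at, gave 2976, 2609 and 3019 in NLS-actin cells, 2308, 3155 and 3242 in WT-actin cells, and 3236, 2980 and 3366 in parental cells. Its lines overlapped, with log2 differences from parental cells of -0.16 for NLS-actin (95% interval -0.51 to 0.19) and -0.15 for WT-actin (-0.50 to 0.20). Probe set 215541_s_at had -0.35 and -0.25 for the same comparisons, and 1560080_at was dim, at 12.6 or below on every array.

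DIAPH2, another Diaphanous formin linked to endosome movement, had no probe set with both high signal and a call. Dim probe set 205603_s_at gave 0.2, 5.3 and 1.4 in NLS-actin cells, 0.3, 9.2 and 1.6 in WT-actin cells, and 23, 10.9 and 22.8 in parental cells. Dim probe set 205726_at gave 0.9, 1.1 and 0.6 in NLS-actin cells, 0.4, 0.4 and 1.3 in WT-actin cells, and 21.3, 2.3 and 21.6 in parental cells. Parental arrays were above both actin lines on each, but all these signals lie below the median of all probe sets. The log2 differences from parental cells, -4.06 and -3.61 for NLS-actin and -3.41 and -4.17 for WT-actin, had SEs of 1.21 to 1.44 and adjusted p values from 0.537 to 0.817 (limma). The brighter 217246_s_at did not share the order, at 46.1, 12.3 and 26.1 in NLS-actin cells, 66.9, 43.2 and 63.6 in WT-actin cells, and 35.4, 23.9 and 62.9 in parental cells. NLS-actin and WT-actin arrays overlapped there (log2 difference -1.21, limma adjusted p = 0.635).

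DIAPH3, the Diaphanous formin of cell division and filopodia, was measured by 3 probe sets above the median signal. The brightest, 229097_at, read 7089, 4699 and 7575 in NLS-actin cells, 6651, 7599 and 6547 in WT-actin cells, and 5921, 4644 and 6671 in parental cells, with overlap between all lines. Its log2 differences from parental cells were 0.15 for NLS-actin (95% interval -0.26 to 0.57) and 0.28 for WT-actin (-0.13 to 0.70). For 232596_at the signals were 456, 311 and 585 in NLS-actin cells, 561, 732 and 764 in WT-actin cells, and 791, 489 and 653 in parental cells. The lines overlapped, with log2 differences of -0.54 for NLS-actin against parental and -0.64 between NLS-actin and WT-actin cells (limma adjusted p = 0.547 for the last). NLS-actin was below the parental array of the same number for all 3 numbers, which are not known to mark pairs. The adjusted p was 0.8 without the replicate block and 0.615 with it within these lines (limma). Probe set 220997_s_at had -0.19 for NLS-actin and 0.55 for WT-actin against parental cells, with arrays that overlapped.

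FMNL2, a formin opened by Cdc42 and Rac that acts at the leading edge of migrating cells, was lower on all 3 NLS-actin arrays than on the 6 others. Its probe set 226184_at gave 2468, 2186 and 2070 in NLS-actin cells, 2852, 2857 and 3099 in WT-actin cells, and 2968, 3154 and 3335 in parental cells. NLS-actin arrays did not overlap either line, whereas WT-actin and parental arrays overlapped. The log2 difference was -0.50 ± 0.14 from parental cells (SE, limma adjusted p = 0.427) and -0.39 ± 0.14 from WT-actin cells (SE, limma adjusted p = 0.442), so neither was called. WT-actin differed from parental cells by -0.10 (95% interval -0.40 to 0.20). Dim probe set 242665_at had the same order, at 20.2, 21.8 and 23.1 in NLS-actin cells, 28.8, 23.9 and 34.5 in WT-actin cells, and 45.1, 40 and 30.4 in parental cells. Its correlation with 226184_at over the 9 arrays was 0.715. Probe set 235881_at was dim and did not exceed 13.1 on any array.

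DAAM1, a formin that acts with Dishevelled in Wnt planar polarity signalling, was higher on the NLS-actin arrays by its brightest probe sets. Probe set 226666_at gave 6107, 6327 and 6558 in NLS-actin cells, 4869, 4804 and 4690 in WT-actin cells, and 4699, 4943 and 5896 in parental cells. Every NLS-actin array was above all 6 others. The log2 difference was 0.30 ± 0.14 from parental cells (SE, limma adjusted p = 0.778) and 0.40 ± 0.14 from WT-actin cells (SE, limma adjusted p = 0.392). Probe set 1555989_at followed it over the 9 arrays (r = 0.955), at 5202, 5588 and 5744 in NLS-actin cells, 4326, 4590 and 3965 in WT-actin cells, and 4264, 4564 and 4980 in parental cells. Another bright probe set, 216060_s_at, overlapped between lines, with a log2 difference of 0.07 for NLS-actin against parental cells (95% interval -0.30 to 0.43). Probe set 244062_at gave 385, 575 and 150 in NLS-actin cells, 125, 133 and 146 in WT-actin cells, and 209, 306 and 263 in parental cells. WT-actin arrays were below both other lines, and NLS-actin replicate 3 stood close to them. Its log2 difference for NLS-actin against WT-actin cells was 1.26 (limma adjusted p = 0.309), and without NLS-actin replicate 3 it was 1.81 (limma adjusted p = 0.022). That difference was past the threshold under 1 of 18 alternatives, the one without that array (adjusted p from 0.022 to 0.626 over them, limma). The dim 232552_at had -0.73 for NLS-actin and -1.83 for WT-actin against parental cells.

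**Figure D3:**
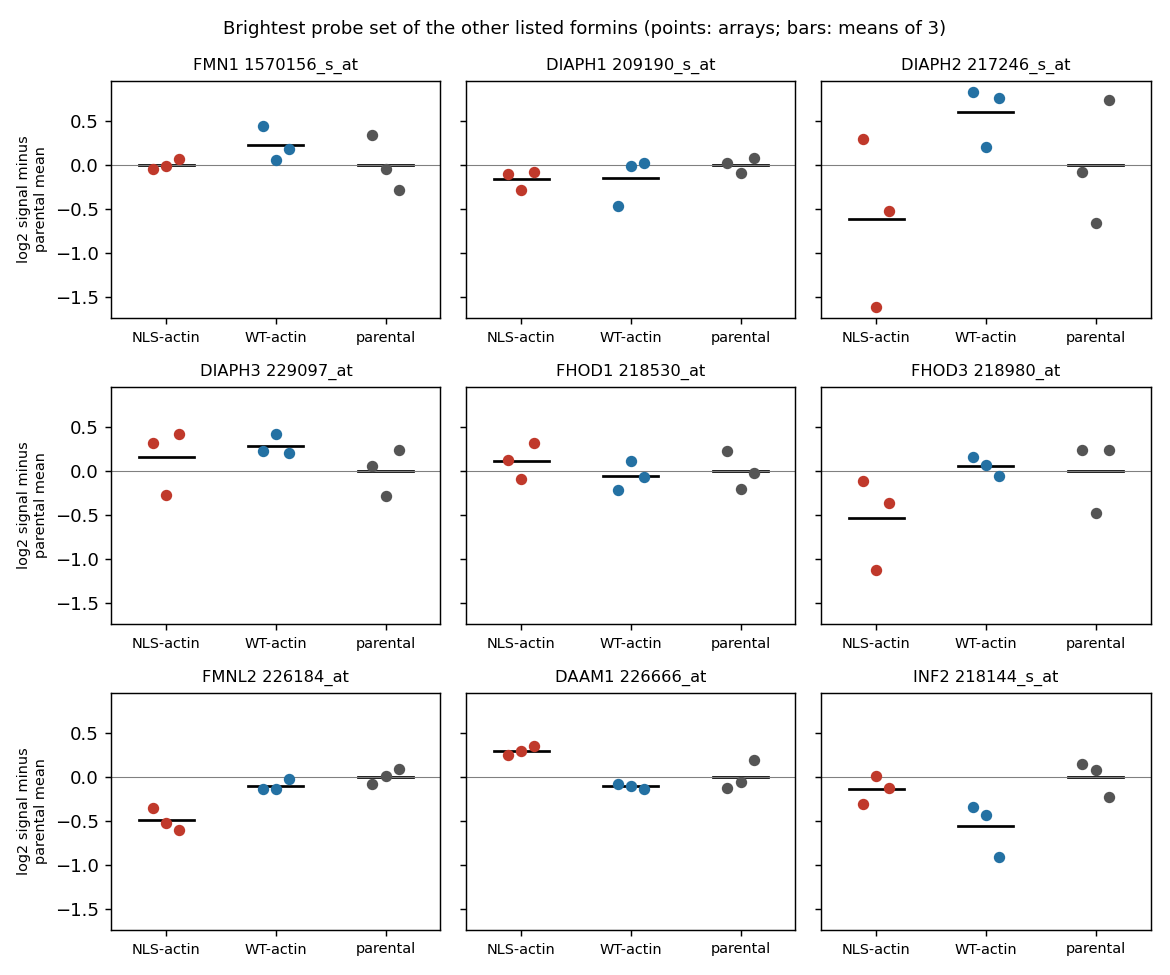
Log2 signal minus the parental mean (y axis) for the brightest probe set of each of the 9 formins other than FMN2, on the 3 arrays each of NLS-actin, WT-actin and parental cells (x axis). Points are arrays and bars are means. All 3 NLS-actin arrays lie below the others for FMNL2 and above them for DAAM1, while the other genes overlap between NLS-actin and parental cells.

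The remaining formins overlapped between NLS-actin and parental cells by their brightest probe sets. FHOD1, which bundles and caps actin filaments downstream of ROCK, gave 283, 244 and 324 in NLS-actin cells, 224, 283 and 249 in WT-actin cells, and 305, 227 and 257 in parental cells (218530_at). Its log2 differences from parental cells were 0.11 for NLS-actin (95% interval -0.37 to 0.59) and -0.06 for WT-actin (-0.54 to 0.43). FHOD3, best known from sarcomeres of heart muscle, gave 1073, 530 and 897 in NLS-actin cells, 1289, 1212 and 1110 in WT-actin cells, and 1371, 835 and 1364 in parental cells (218980_at). NLS-actin arrays were below all WT-actin arrays, with a log2 difference of -0.59 (limma adjusted p = 0.613), and overlapped parental arrays, with replicate 2 the lowest of both lines. At each replicate number the NLS-actin array was the lower, though the numbers are not known to mark pairs. The log2 difference from parental cells was -0.54. Its adjusted p was 0.806 without the replicate block and 0.446 with it within these lines (limma).

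FMN1, the founding formin, which is found at epithelial cell contacts, had a log2 difference of 0.00 for NLS-actin (95% interval -0.57 to 0.57) and 0.23 for WT-actin against parental cells (-0.34 to 0.80) by its brightest probe set. That probe set, 1570156_s_at, gave 133, 136 and 144 in NLS-actin cells, 187, 143 and 155 in WT-actin cells, and 173, 132 and 113 in parental cells. A further probe set, 238621_at, was lower on the NLS-actin arrays than on the parental ones, at 25.2, 45.5 and 38.5 in NLS-actin cells, 54.6, 41.8 and 32.4 in WT-actin cells, and 48.1, 70.8 and 50.3 in parental cells (log2 difference -0.65 for NLS-actin, limma adjusted p = 0.861). The last FMN1 probe set, 1563559_at, was dim, at 21.1 or below.

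INF2, which can sever filaments as well as start them and acts at the endoplasmic reticulum and mitochondria, gave 230, 285 and 261 in NLS-actin cells, 224, 211 and 151 in WT-actin cells, and 315, 300.4 and 243 in parental cells (218144_s_at). WT-actin arrays lay below both other lines, with a log2 difference from parental cells of -0.56 ± 0.24 (SE, limma adjusted p = 0.817). Probe set 224469_s_at had -0.42 for NLS-actin and -0.68 for WT-actin against parental cells, with overlap between lines. The other INF2 probe sets, 222534_s_at and 222535_at, were dim and scattered between 0.6 and 25.7 across arrays of all lines.

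Of the 5 remaining human formins, 4 had probe sets, 8 in all, and only 1 of these was above the median signal. This was FHDC1 226599_at, a formin that acts on actin and microtubules, with log2 differences of 0.23 for NLS-actin and 0.31 for WT-actin against parental cells (limma adjusted p = 0.885 and 0.85). By limma, 0 of the 8 were called in any comparison, and 0, 1 and 0 passed an unadjusted p of 0.05 for NLS-actin against parental, WT-actin against parental and NLS-actin against WT-actin. Over all probe sets, 0.0769%, 0.103% and 0.364% were called in the same order, and 6.36%, 5.98% and 7.85% passed the unadjusted p.

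The pathway around the formins was counted by role, by limma's adjusted p over all probe sets, and counts at an unadjusted p under 0.05 follow the order NLS-actin against parental, WT-actin against parental, NLS-actin against WT-actin. Among partners, 0 of 23 probe sets of the Spire and profilin group and 0 of 39 of formin-binding scaffolds were called, with 1, 0 and 1 and with 3, 2 and 3 at the unadjusted p. Over all probe sets, 0.0769%, 0.103% and 0.364% were called, and 6.36%, 5.98% and 7.85% passed the unadjusted p. SPIRE2, a Spire protein, had 0.62 for NLS-actin against parental cells (limma adjusted p = 0.74). MAPRE1, the microtubule end-binding protein EB1, had -0.68 (adjusted p = 0.434), and IQGAP1, a scaffold that binds DIAPH1, had -0.74 (adjusted p = 0.591).

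Branched and other nucleators gave 0 calls as well, over 22 probe sets of Arp2/3 subunits, 19 of nucleation-promoting factors and 22 of other nucleators and elongators. At the unadjusted p these groups had 0, 0 and 0, then 4, 3 and 2, then 2, 0 and 1, beside the same 6.36%, 5.98% and 7.85% of all probe sets. Median log2 differences of the Arp2/3 probe sets were -0.04 for NLS-actin and 0.02 for WT-actin against parental cells. WASF3, a WAVE protein that turns on Arp2/3 at the cell edge, came closest to the threshold. It gave 731, 634 and 678 in NLS-actin cells, 1211, 1093 and 1396 in WT-actin cells, and 723, 669 and 655 in parental cells. WT-actin arrays were above all others, with a log2 difference of 0.85 from parental cells (limma adjusted p = 0.134), and NLS-actin cells were at -0.85 against WT-actin cells (adjusted p = 0.0536). That last difference passed the threshold under 3 of 19 alternatives, with adjusted p values from 0.0379 to 0.259 over them (limma). WASL, the Arp2/3 activator N-WASP, had -0.91 for NLS-actin against parental cells (limma adjusted p = 0.448), and ENAH, a filament elongator, had -0.73 (adjusted p = 0.48).

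Downstream, 4, 0 and 4 of 14 probe sets of SRF and its cofactors passed the unadjusted p, beside 6.36%, 5.98% and 7.85% of all probe sets. With a change over 2-fold as well, 3, 0 and 3 of the 14 passed, all higher, beside 3.6%, 3.2% and 4.67% of all probe sets. Several of the 14 share a gene, so they are not separate observations. In NLS-actin against parental cells and against WT-actin cells, 1 of the 14 was called, beside 0.0769% and 0.364% of all. It was MRTFA, the cofactor that actin monomers hold back. Its probe set 215292_s_at rose to 151, 156 and 157 in NLS-actin cells, against 13.3, 15.8 and 21.4 in WT-actin cells and 25.9, 19.1 and 16.5 in parental cells. The log2 difference was 2.95 ± 0.43 from parental cells (SE, limma adjusted p = 0.0219) and 3.23 ± 0.43 from WT-actin cells (SE, limma adjusted p = 0.00356). The WT-actin and parental signals of 215292_s_at lay below the median of all probe sets. Summaries per gene and the filter on cross-hybridising probe sets did not hold this probe set by itself, so they are not among the alternatives counted. The call against WT-actin cells held under 17 of 17 alternatives. That against parental cells held under 10 of 18, and was lost on leaving out any 1 NLS-actin or parental array (adjusted p from 0.0705 to 0.16, limma), without the 3 arrays that deviated together (0.116) and with the replicate block over all 9 arrays (0.0523). With the block within NLS-actin and parental arrays it was 0.0416. MRTFA 215291_at gave 142, 158 and 160 in NLS-actin cells, 46.9, 32.2 and 66.9 in WT-actin cells, and 66.5, 45.9 and 80.5 in parental cells. Every NLS-actin array was above all WT-actin and parental arrays, but without a call (adjusted p = 0.427 against parental cells, limma). The brightest MRTFA probe set, 212748_at, had a log2 difference of -0.46 for NLS-actin against parental cells with overlapping arrays, so the MRTFA probe sets disagreed. SRF itself had -0.35 for NLS-actin and -0.28 for WT-actin against parental cells by 202401_s_at (limma adjusted p = 0.837 and 0.862), and MRTFB 218259_at had 0.41 for NLS-actin against parental cells (adjusted p = 0.714).

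The genes most like FMN2 were found by the Pearson correlation of log2 signals with 223618_at over the 9 arrays, among 11978 genes whose brightest probe set was above the median. The 5 highest were BEND7 (r = 0.974), LINC01410 (0.971), MGAT4A (0.964), FILIP1L (0.963) and CMTM6 (0.961). BEND7 averaged 84.5 in NLS-actin, 524 in WT-actin and 195 in parental cells, and MGAT4A, a Golgi enzyme that branches N-glycans, averaged 40, 247 and 93.6 in the same order. FILIP1L, a relative of a filamin-binding protein, averaged 201 in NLS-actin, 792 in WT-actin and 477 in parental cells. CMTM6, which keeps PD-L1 on the cell surface, followed the same order over a far narrower range, at 3780, 4640 and 4160, and LINC01410 averaged 86.4, 166 and 121. The 2 lowest correlations were those of NGEF (r = -0.989) and DOCK11 (r = -0.988), both guanine nucleotide exchange factors. NGEF averaged 366 in NLS-actin, 50.3 in WT-actin and 123 in parental cells, and DOCK11 averaged 126, 15.2 and 49.6. These genes were selected on the pattern itself, over arrays that fall into 3 lines, so the correlations describe the order of the lines and carry no test. None of the listed formins was among them.

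**Figure D4:**
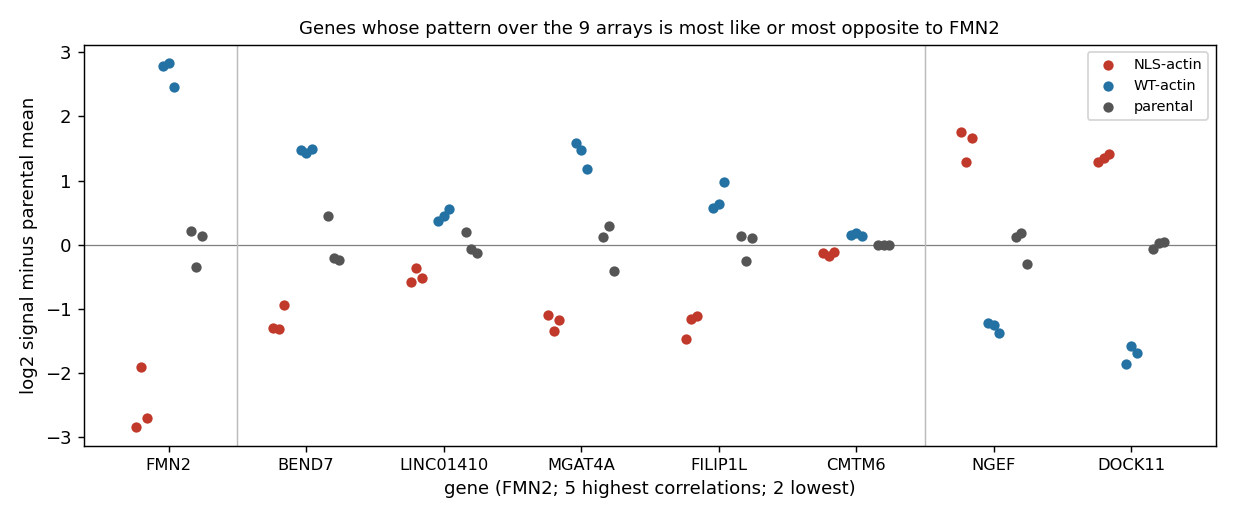
Log2 signal minus the parental mean (y axis) on each of the 9 arrays for FMN2, the 5 genes with the highest and the 2 with the lowest correlation with it (x axis). Points are arrays of NLS-actin (red), WT-actin (blue) and parental (grey) cells. FMN2 and the 5 genes run WT-actin, parental, NLS-actin from high to low, while NGEF and DOCK11 run the other way.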

How the data were processed

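The authors hybridised cRNA of the 3 lines to whole-genome arrays and processed the scans with MAS5. The deposited values are linear signal intensities per probe set, scaled by the authors to an equal trimmed mean. The MAS5 version and scaling target are not given in the sources used here, and scanner files were not used. Arrays give no read depth, so their number, 3 per line, limits the precision.

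The signals were put on the log2 scale with nothing added. Apart from 62 controls, 54613 probe sets were tested, of which 41091 had 1 gene symbol, 1801 several and 11721 none listed. Probe sets with several symbols were named for no gene, symbols were updated through Entrez identifiers, and positions and promoters came from RefSeq for GRCh38.p14. All 9 arrays entered a limma 3.58.1 fit (R 4.3.3) of 1 mean for each line and a variance prior that followed the signal (6 residual and 7.08 prior degrees of freedom). P values were two-sided and adjusted by Benjamini and Hochberg over all probe sets in each of 3 comparisons. The fitting step was tested on simulated data. Alternatives covered 21 settings of scaling, offset, filter, variance prior, replicate block, summary per gene and arrays left out. The replicate number was not in the fit. The labels do not say that equal numbers mark a pair, so pairing by number was used only as an alternative. Deviations from the line means correlated at 0.15, 0.662 and 0.209 between NLS-actin and parental arrays of the same number. The highest value is that of number 2, whose arrays are among those that deviated together. Arrays 1 and 3 correlated more across numbers (0.38 and 0.337). WT-actin arrays correlated at -0.443 to 0.425 with arrays of the same number in the other lines. These correlations do not show whether arrays were paired. Figures were made with Python 3.11.15 and matplotlib 3.10.9.

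The members, gene lists and tests were chosen with earlier results of these data known. Every listed formin is named. The results of some gene lists are not reported here. Of the other lists, genes past the adjusted threshold and some of the up to 3 members with the smallest p are named, and for FMN2 the 5 genes of highest and 2 of lowest correlation. MAP2 and the further MRTFA probe sets were named after their values were seen.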

Additional observations from a re-analysis of the deposited data

Results flagged for a closer look

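FMN2 223618_at stood out because every NLS-actin array lay below, and every WT-actin array above, all parental arrays. The NLS-actin minus WT-actin difference was -5.18 on the log2 scale. FMN2 was chosen for this pattern, so its passing limma's threshold is no independent test, and the difference was not tested on arrays that the choice did not use.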

How the results depend on the processing

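FMN2 223618_at kept the direction of each difference under every alternative tried. NLS-actin against parental cells gave -1.90 with the offset and -2.94 without the 3 arrays that deviate together (NLS-actin 2, WT-actin 1 and parental 2; chosen after seeing the data), and NLS-actin against WT-actin cells gave -4.46 with the offset. The mean over the FMN2 probe sets was -0.85, 0.88 and -1.73 for NLS-actin against parental, WT-actin against parental and NLS-actin against WT-actin cells. Leaving out 1 array at a time gave -2.77 to -2.30, 2.52 to 2.81 and -5.47 to -5.00 for the same comparisons.

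The count of formin probe sets past the adjusted p, 1 in each comparison, was 0 for NLS-actin against parental cells without the variance trend, with the arrays of these 2 lines only and with the mean per gene. For WT-actin against parental cells it was 0 without the trend, with the mean per gene and without the 3 arrays. For NLS-actin against WT-actin cells it was 2 with the offset and 0 with the mean per gene. Without 1 array at a time it was 0 to 1, 0 to 1 and 1 to 2. It was 0 for NLS-actin against parental cells without NLS-actin 1 or 3, WT-actin 1 or 2, or any parental array, and for WT-actin against parental cells without WT-actin 1 or 2 or any parental array.

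The count by unadjusted p and fold was 1 for NLS-actin against parental cells without dim probe sets or with the brightest probe set per gene, and 2 to 4 without 1 array at a time. For WT-actin against parental cells, 5 became 1 without dim probe sets, with the brightest and with the mean per gene. It became 3 without cross-hybridising probe sets, without the 3 arrays or with Tukey's test, and 3 to 6 without 1 array at a time. For NLS-actin against WT-actin cells, 4 became 1 with the brightest probe set, 2 with the mean per gene, without cross-hybridising probe sets, without the 3 arrays or with Tukey's test, and 2 to 5 without 1 array at a time. Over all probe sets, the number past the adjusted p was 42, 56 and 199 for the same order of comparisons, and was 9, 6 and 76 without the variance trend. Settings per gene count 10 genes in place of 31 probe sets. The causes were not tested.

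With the replicate block over all 9 arrays the counts past the adjusted p stayed at 1 in each comparison. In a block of the 6 NLS-actin and parental arrays, chosen after seeing the data, the count was also 1 but the probe set was DIAPH1 213514_s_at (adjusted p = 0.0215, limma, with a range of 0.0215 to 0.836 over its alternatives) in place of FMN2. DAAM1 244062_at for NLS-actin against WT-actin cells had a range of 0.022 to 0.626.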

Other observations

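CD14, a leukocyte surface receptor for lipopolysaccharide, was the one probe set called in the cell type marker lists. The comparison was NLS-actin against WT-actin cells, where 0.364% of all probe sets were called. CD14 gave 94, 139.7 and 84.9 in NLS-actin cells against 13.8, 25.3 and 16.6 in WT-actin cells, a log2 difference of 2.53 ± 0.49 (SE, limma adjusted p = 0.0484). The call held under 6 of 19 alternatives, with adjusted p values from 0.0233 to 0.202 over them. Parental cells gave 76.2, 119 and 35.6. Summed leukocyte markers, 4 of 6 measured, were 96.4 to 191 in NLS-actin, 32.9 to 63.9 in WT-actin and 56 to 130 in parental arrays, with CD14 the only gene above the median. Fibroblast marker sums overlapped between lines, at 475 to 1180, 304 to 1130 and 481 to 964 in the same order. None of the melanocyte and endothelial markers was above the median.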
